A study of Mus musculus with 6 samples.

Results

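The Notch genes described here are the ligands Jag1, Jag2, Dll1 and Dll4, the receptors Notch1, Notch2 and Notch3, the coactivator Maml2, and the target genes Hes1 and Hey1. They were chosen by name, as every exon probe set whose single gene symbol in the platform annotation was 1 of these 10 symbols, which gave 251 of the 318760 probe sets with 1 gene symbol. The samples were 3 arrays of Smo shRNA cells and 3 arrays of control shRNA cells, all hybridized with total RNA of OP9 cells on Affymetrix Mouse Exon 1.0 ST arrays. OP9 is a mouse bone marrow stromal line on which lymphoid progenitors are cultured. The Smo shRNA cells stably carried a pLKO.1-puro lentivirus with a hairpin against Smoothened (Smo), a membrane protein that passes on Hedgehog signals. The control shRNA cells carried the same kind of vector with a scrambled hairpin. Both lines therefore had integrated lentivirus, and both were kept below confluency. Each stable line gave 3 RNA samples, with no statement that these were separate cultures, transductions or clones, so the p-values cover the spread among RNA samples within a line, which may be technical. Whatever else sets the lines apart cannot be told apart from the hairpin.

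Notch signalling runs between touching cells. Jagged and Delta-like ligands on the surface of a cell bind Notch receptors on its neighbour, the receptor is then cut by an ADAM protease and by gamma-secretase, and its freed intracellular part joins the DNA-binding protein Rbpj and a Mastermind-like coactivator to switch on genes such as those of the Hes and Hey repressors. In bone marrow culture the pathway is known for directing progenitors toward T cells, and OP9 cells are commonly given an added Delta-like ligand for that purpose.

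The values are log2 hybridization values made by the authors. A gene value joins all probe sets of a gene whose mean over the 6 arrays reached the median of all probe sets (6.56 on the log2 scale), with at least 3 such probe sets. All 10 genes met this, and 236 of their 251 probe sets passed the filter. Differences are in log2 units, Smo shRNA arrays minus control arrays, and adjusted p-values are from limma with Benjamini-Hochberg adjustment over all 16871 tested genes, called at 0.05. Levels of different genes cannot be ranked on these arrays, because each probe has its own brightness. Smo itself was 1.84-fold lower in Smo shRNA cells, at 11.38 ± 0.06 against 12.25 ± 0.03 in control shRNA cells (SD, n = 3 each). Across genes, which are no independent replicates, Pearson's r was 0.996 to 0.998 within a line and 0.979 to 0.981 between the lines.

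Of the 10 genes, 4 fell in Smo shRNA cells (Jag1, Notch2, Maml2 and Hey1), 3 rose (Notch1, Notch3 and Hes1) and 3 did not pass (Jag2, Dll1 and Dll4). Across all tested genes 38.7% passed, 21.3% higher and 17.4% lower. The 10 genes were chosen with earlier results of these arrays known, so their share is not read as an enrichment. The lines did not overlap in any of the 7 genes that passed, and over all tested genes 47.6% showed no overlap.

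**Figure D1:**
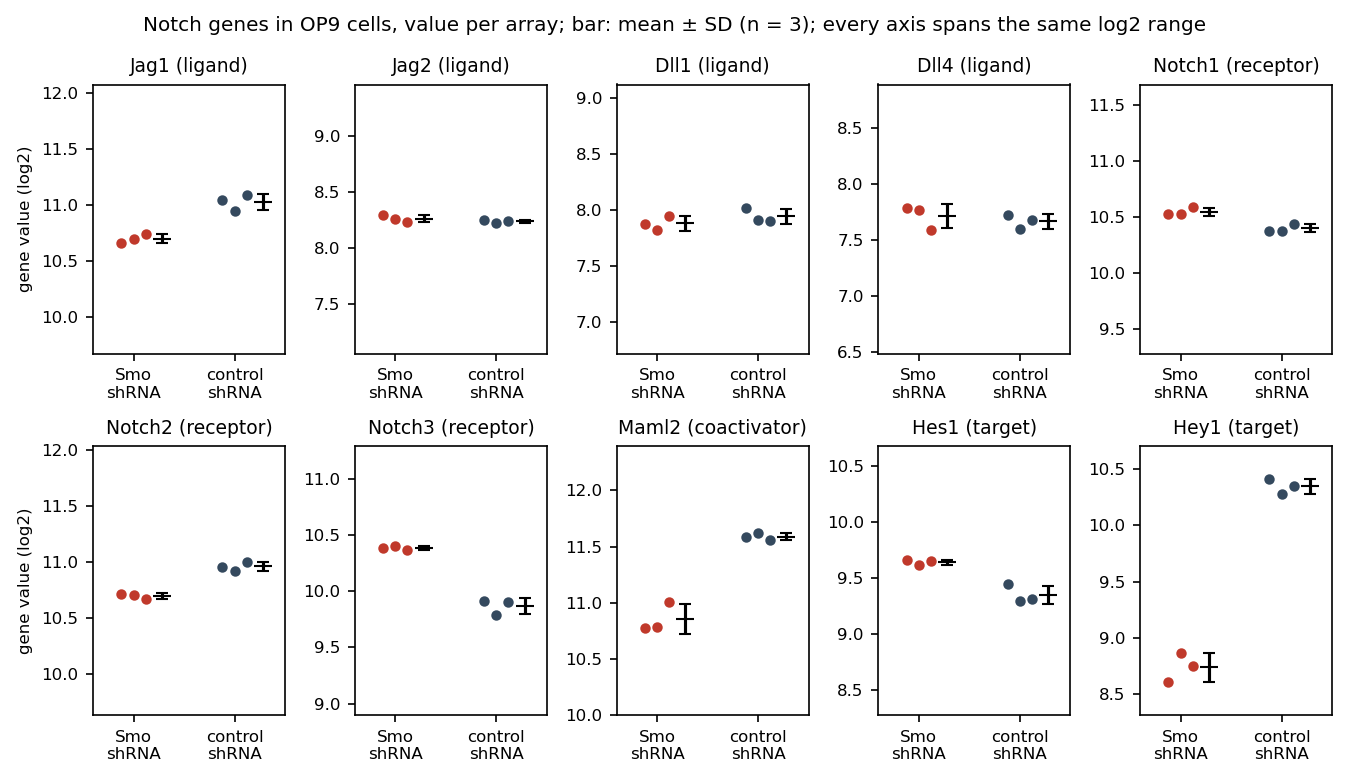
Gene values (log2) of the 10 Notch genes on each array, with 3 Smo shRNA arrays (red) left of 3 control shRNA arrays (blue) in each panel; horizontal marks and whiskers give the mean ± SD, and every vertical axis spans the same log2 range. Hey1 (8.73 against 10.35) and Maml2 (10.85 against 11.59) show the widest gaps, while the points of Jag2, Dll1 and Dll4 overlap.

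Among the ligands, Jag1 was the gene that changed. Jag1, a ligand also made by bone-forming cells of the marrow, had 10.66, 10.70 and 10.74 in Smo shRNA cells, against 11.05, 10.95 and 11.09 in control shRNA cells. Every Smo shRNA array lay below every control array. The log2 difference was -0.33 (SE 0.048, limma adjusted p = 5.92e-05), a 1.26-fold lower value. All 31 Jag1 probe sets had a negative difference and 27 passed on their own. Of all kept probe sets 30.0% passed, 17.5% higher and 12.4% lower, and of the 236 of the 10 genes 82 were lower, 47 higher and 107 did not pass. The Jag1 differences ran from -0.58 (probe set 4342103) to -0.14 (probe set 4994235).

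Jag2, the other Jagged ligand, had 8.29, 8.27 and 8.24 in Smo shRNA cells, against 8.26, 8.23 and 8.24 in control shRNA cells. Its arrays overlapped, with a log2 difference of 0.02 (95% interval -0.12 to 0.16, limma adjusted p = 0.85). None of its 24 kept probe sets passed, with differences from -0.31 (probe set 5097589) to 0.37 (probe set 4513780). A further 5 Jag2 probe sets lay under the filter, and another 2 that the annotation shares between Jag2 and Pgp were left out.

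Dll1, the Delta-like ligand most often added to OP9 cells, had 7.88, 7.82 and 7.95 in Smo shRNA cells, against 8.02, 7.91 and 7.90 in control shRNA cells, a log2 difference of -0.06 (95% interval -0.22 to 0.10, limma adjusted p = 0.583). Of its 13 kept probe sets, 11 differed by at most 0.16 in size. The remaining pair had larger values. Probe set 5334704 had 7.90, 8.06 and 7.96 in Smo shRNA cells, against 8.74, 8.39 and 8.43 in control shRNA cells, and was lower by itself (-0.55, SE 0.15, limma adjusted p = 0.0116 over all probe sets). Probe set 5533379 had 6.26, 6.64 and 6.46 in Smo shRNA cells, against 7.24, 6.92 and 6.91 in control shRNA cells, and did not pass (-0.57, SE 0.21, limma adjusted p = 0.0562). It was kept only through the control shRNA arrays, since its mean was 6.46 in Smo shRNA cells, under the filter, and 7.02 in control shRNA cells.

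Dll4, the ligand through which thymic epithelium instructs T cell progenitors, had 7.79, 7.77 and 7.59 in Smo shRNA cells, against 7.73, 7.60 and 7.68 in control shRNA cells. The difference was 0.05 (95% interval -0.13 to 0.22, limma adjusted p = 0.728). Of its 8 kept probe sets 1 passed, probe set 5537259, with 7.10, 7.33 and 7.03 in Smo shRNA cells, against 5.98, 5.26 and 7.04 in control shRNA cells. Its groups overlapped, since control replicate 3 lay at the level of the Smo shRNA arrays and the other two control arrays lay below the filter level. It was kept only through the Smo shRNA arrays, with means of 7.15 in Smo shRNA cells and 6.09 in control shRNA cells, so its call is a description. The lowest Dll4 difference was -0.18 (probe set 4836502). Dll3, a Delta-like protein that does not activate receptors on neighbouring cells, is no member of the set and had 8.18, 8.30 and 8.16 in Smo shRNA cells, against 8.21, 8.29 and 8.16 in control shRNA cells (difference -0.00, 95% interval -0.16 to 0.15, limma adjusted p = 0.987).

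The receptors moved in different directions, Notch3 and Notch1 up and Notch2 down. Notch3, a receptor characteristic of pericytes and vascular smooth muscle cells, had 10.38, 10.40 and 10.37 in Smo shRNA cells, against 9.92, 9.79 and 9.91 in control shRNA cells. The 3 Smo shRNA arrays lay close together and above all control arrays. The difference was 0.51 (SE 0.053, limma adjusted p = 2.07e-06), or 1.43-fold higher. Of its 42 probe sets 41 were higher and 38 passed, with differences up to 0.97 (probe set 4726022). The exception was probe set 4329560, with 9.53, 9.73 and 9.62 in Smo shRNA cells, against 9.87, 9.67 and 9.55 in control shRNA cells (-0.07, SE 0.11, limma adjusted p = 0.709).

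Notch2, the receptor required for marginal zone B cells, had 10.72, 10.71 and 10.67 in Smo shRNA cells, against 10.96, 10.92 and 11.00 in control shRNA cells. All Smo shRNA arrays were below all control arrays, by 0.26 on average (difference -0.26, SE 0.045, limma adjusted p = 0.000215), or 1.2-fold lower. Of its 37 probe sets 36 were lower and 24 passed. They ran from -0.45 (probe set 5180799) to 0.00 (probe set 4896201).

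Notch1, the receptor required for commitment to the T cell lineage, had 10.53, 10.53 and 10.59 in Smo shRNA cells, against 10.38, 10.38 and 10.44 in control shRNA cells. The arrays did not overlap, but the difference was small, at 0.15 (SE 0.048, limma adjusted p = 0.0232), or 1.11-fold higher. The call was lost when any single array other than control replicate 3 was left out, with differences from 0.10 to 0.15 and adjusted p up to 0.12. Of 42 kept probe sets 37 were higher, 4 of them past the threshold, and the differences ran from -0.11 (probe set 4866911) to 0.47 (probe set 4719480). Notch4, the receptor of endothelium and no member of the set, had 8.25, 8.24 and 8.22 in Smo shRNA cells, against 8.19, 8.26 and 8.13 in control shRNA cells (difference 0.04, 95% interval -0.11 to 0.19, limma adjusted p = 0.707).

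Maml2, a Mastermind-like coactivator that bridges the receptor's intracellular part and histone acetyltransferases, had 10.77, 10.78 and 11.01 in Smo shRNA cells, against 11.59, 11.62 and 11.56 in control shRNA cells. Smo shRNA replicate 3 was the highest of its group and still lay well below every control array. The difference was -0.74 (SE 0.057, limma adjusted p = 1.16e-07), or 1.67-fold lower. Maml2 was the only member with every probe set past the threshold, 23 of 23, all lower. The difference was widest at probe set 4600688, which had 7.10, 7.08 and 7.31 in Smo shRNA cells, against 8.23, 8.27 and 8.44 in control shRNA cells (-1.15, SE 0.17, limma adjusted p = 6.21e-05). The difference nearest to 0 was -0.55 (probe set 5308033). Without Smo shRNA replicate 3 the gene difference was -0.79.

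**Figure D2:**
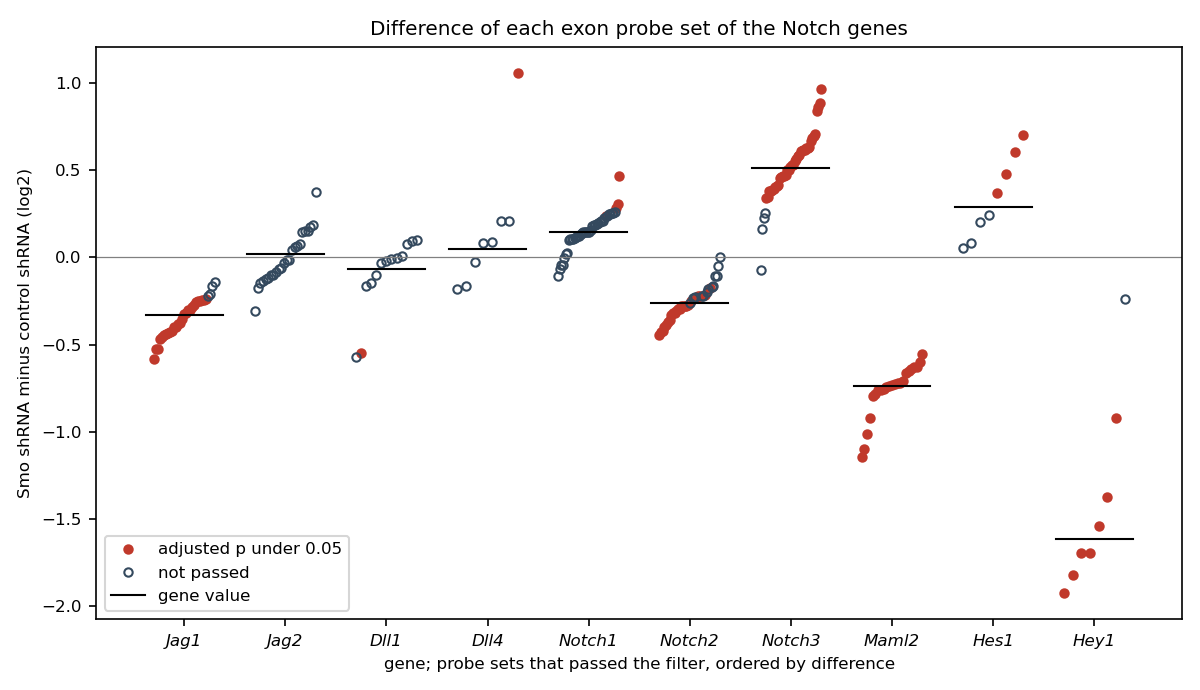
Difference between Smo shRNA and control shRNA arrays (log2) for each of the 236 probe sets that passed the filter, by gene and ordered by size within the gene; filled red points passed an adjusted p of 0.05, open blue points did not, and black lines mark the gene values. The points of Maml2 lie together between -1.15 and -0.55, those of Hey1 spread from -1.93 to -0.24, and those of Jag2 lie on both sides of 0.

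Sequence just upstream of the transcription start was available from RefSeq (GRCm38.p6) for 8 of the 10 genes, at 10 start sites. The 2 genes without such sequence were the targets Hey1 and Hes1, so neither was searched for motifs. The 250 bases before the start were searched on both strands for TGGGAA, the core of the Rbpj site, for CACGNG, the E box class that Hes and Hey repressors bind, and for ACCACCC, the core of the Gli site. The 3 searched motifs occur in 21.6%, 23.5% and 3.9% of the 32851 upstream windows of the table. Among the members' 10 windows, 1 held TGGGAA, 6 held CACGNG and 0 held ACCACCC. The windows of members that changed and held a match are shown 5′ to 3′ on the gene's strand, with the matches in capitals. In Jag1 (chr2:137116521-137116770, minus strand), Notch2 (chr3:98013288-98013537, plus strand) and Notch3 (chr17:32166891-32167140, minus strand) the capitals are E box class matches, and in the window before the second listed start of Maml2 (chr9:13662210-13662459, plus strand) they are the Rbpj core read on the opposite strand. A match is a string of letters and does not show binding.
Jag1: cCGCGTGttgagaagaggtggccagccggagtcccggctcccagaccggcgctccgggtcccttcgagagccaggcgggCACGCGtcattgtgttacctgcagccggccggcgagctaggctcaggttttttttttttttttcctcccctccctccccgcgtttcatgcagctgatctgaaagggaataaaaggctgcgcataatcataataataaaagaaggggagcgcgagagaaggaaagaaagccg
Notch2: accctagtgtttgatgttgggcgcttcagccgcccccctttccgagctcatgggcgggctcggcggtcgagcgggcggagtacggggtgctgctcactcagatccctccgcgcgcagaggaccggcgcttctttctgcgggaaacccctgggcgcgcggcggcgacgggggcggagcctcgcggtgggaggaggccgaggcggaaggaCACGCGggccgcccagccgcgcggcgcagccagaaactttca
Notch3: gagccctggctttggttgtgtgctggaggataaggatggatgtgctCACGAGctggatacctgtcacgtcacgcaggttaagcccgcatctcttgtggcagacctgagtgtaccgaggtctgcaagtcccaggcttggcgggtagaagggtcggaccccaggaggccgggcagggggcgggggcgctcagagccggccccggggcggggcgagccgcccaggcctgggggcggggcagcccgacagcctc
Maml2, second start: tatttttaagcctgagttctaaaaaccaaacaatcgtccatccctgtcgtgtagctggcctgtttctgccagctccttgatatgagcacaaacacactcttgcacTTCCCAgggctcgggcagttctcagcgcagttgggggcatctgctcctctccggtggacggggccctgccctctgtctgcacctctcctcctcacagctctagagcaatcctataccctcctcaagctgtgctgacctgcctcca

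The E box class matches began 249 and 171 bases upstream of the start in Jag1, 42 in Notch2 and 204 in Notch3, and the Rbpj core began 145 bases upstream in Maml2. Genes with a CACGNG match thus included members that fell (Jag1, Notch2), a member that rose (Notch3) and members that did not pass (Dll1, Dll4).

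The target genes Hey1 and Hes1 moved in opposite directions. Hey1 encodes a basic helix-loop-helix repressor that acts in vessels, heart and bone. It had 8.60, 8.86 and 8.74 in Smo shRNA cells, against 10.42, 10.28 and 10.35 in control shRNA cells. The gap between the lines was many times the SD within either (0.13 in Smo shRNA cells and 0.07 in control shRNA cells). The difference was -1.62 (SE 0.070, limma adjusted p = 3.05e-10), and of the 16871 tested genes 62 had a lower one.

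Hes1, a repressor of the same protein class and the best known Notch target, had 9.66, 9.61 and 9.65 in Smo shRNA cells, against 9.44, 9.30 and 9.31 in control shRNA cells. All Smo shRNA arrays were higher, by 0.29 on average (SE 0.060, limma adjusted p = 0.00127), or 1.22-fold. All 8 Hes1 probe sets were higher, and 4 passed. Their differences ranged from 0.05 (probe set 4599966) to 0.70 (probe set 4984289). Probe set 4984289 had 8.99, 9.02 and 9.18 in Smo shRNA cells, against 8.59, 8.16 and 8.33 in control shRNA cells.

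The Hey1 value minus the Hes1 value of the same array was -1.05, -0.75 and -0.90 in Smo shRNA cells, against 0.97, 0.99 and 1.04 in control shRNA cells. The lines did not overlap, and the log2 difference between them was -1.90. An exact permutation test over the arrays, two-sided, gave p = 0.1, the smallest that 3 against 3 arrays allow. The level of each gene depends on its probes, so only the change in this difference is informative.

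Within Hey1, 7 of 8 probe sets fell on their own and 1 did not pass. Probe set 4546767 changed most, with 8.11, 8.21 and 8.48 in Smo shRNA cells, against 10.24, 10.03 and 10.31 in control shRNA cells (-1.93, SE 0.13, limma adjusted p = 2.58e-08). Probe set 4560878 changed least, with 10.21, 10.30 and 10.28 in Smo shRNA cells, against 10.61, 10.56 and 10.34 in control shRNA cells (-0.24, SE 0.093, limma adjusted p = 0.0656). Its lines lay close together and did not overlap; lines did not overlap in 41.0% of all kept probe sets. Probe set 4381308 was intermediate, at -0.92.

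**Figure D3:**
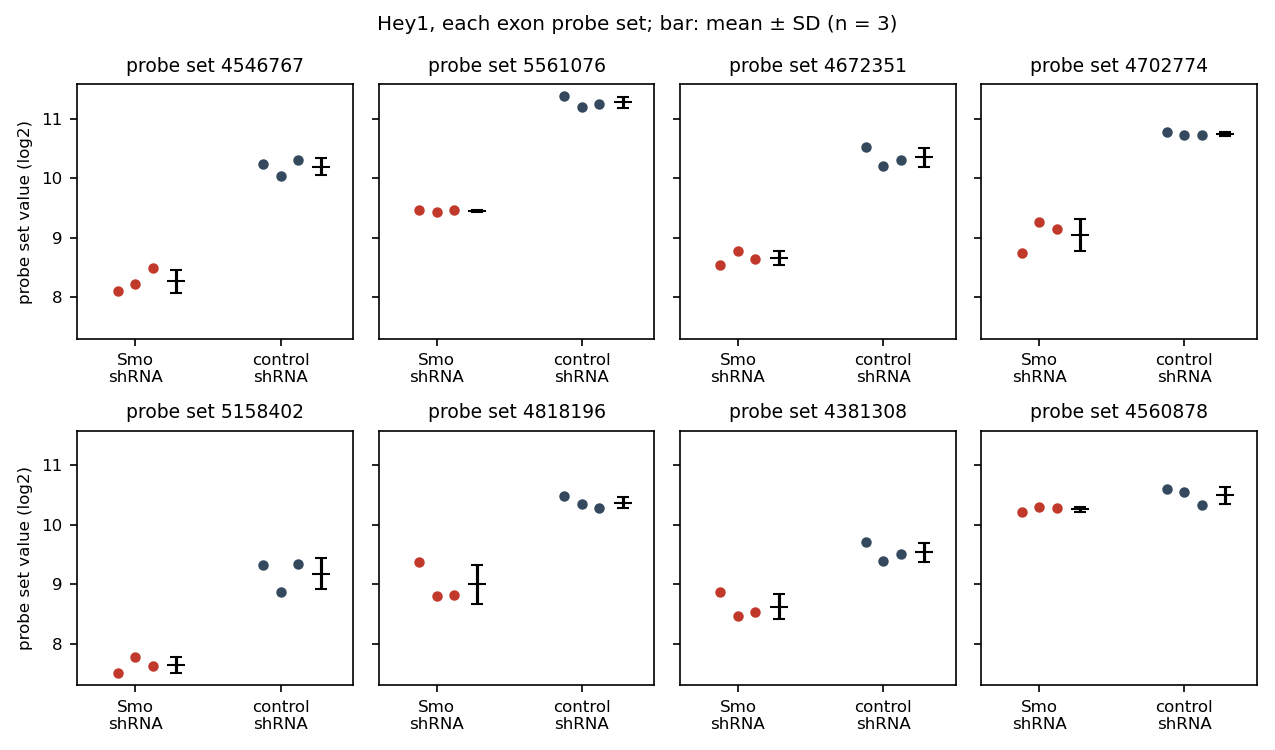
Values (log2) of the 8 Hey1 probe sets on each array, with Smo shRNA arrays (red) left of control shRNA arrays (blue), on a common vertical axis, ordered from the most to the least changed; marks and whiskers give the mean ± SD (n = 3). The groups are far apart in 7 probe sets, and probe set 4560878 (-0.24) stays above 10 in both lines.

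Whether a probe set moved apart from the rest of its gene was tested on the splicing index, which subtracts the gene value from the probe set value on each array. Of the 236 kept probe sets of the 10 genes, 1 passed, the Hey1 probe set 4560878, whose splicing index was higher in Smo shRNA cells by 1.38 (SE 0.086, limma adjusted p = 0.00268 over all 240543 probe sets tested). The value of probe set 4560878 itself was not higher (difference -0.24). Its index was higher since the gene value subtracted from it fell more (-1.62). Why it followed the gene so little was not tested. Of all probe sets tested 1.16% passed, 0.525% higher and 0.635% lower. By adjusted p the Notch3 probe set 4329560 came next in the set, with a splicing index difference of -0.59 (limma adjusted p = 0.0554), and then the Dll1 probe set 5334704 at -0.49 (limma adjusted p = 0.0678), neither past the threshold. When probe sets had to reach the 75th percentile of all values (8.22), the Notch3 probe sets 4329560 (-0.59, adjusted p = 0.0225) and 4726022 (0.45, adjusted p = 0.0315) passed. The Dll1 probe set 5334704 also did (adjusted p = 0.0384), but it met that filter only through the control shRNA arrays, with means of 7.97 in Smo shRNA cells and 8.52 in control shRNA cells, so its call is not read as support. In simulated data this test recovered 52% of probe sets changed 2-fold and 16% of those changed 1.5-fold. Far fewer probe sets were changed there than passed in the real data, so these shares are only a rough guide. A probe set that did not pass may still differ from its gene. The positions of probe sets in the transcripts were not used here.

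The genes whose profile over the 6 arrays, centred on the control mean, lay nearest to that of Hey1 were Fbln5, Runx1t1, Ccbe1, Rasgrp3 and Cd36, at Euclidean distances of 0.13 to 0.19 on the log2 scale. They encode an elastic fibre protein, a transcriptional co-repressor, a secreted factor of lymphatic growth, a Ras activator and a fatty acid transporter. Runx1t1 had 7.51, 7.71 and 7.65 in Smo shRNA cells, against 9.25, 9.04 and 9.21 in control shRNA cells. The nearest to Maml2 were Cxcl12, a chemokine that holds lymphoid precursors in the marrow, Numbl, an endocytic adaptor related to the Notch inhibitor Numb, and Pmepa1, a membrane protein that restrains TGF-beta signalling, at distances of 0.09 to 0.12. Like Maml2, Cxcl12 had its highest Smo shRNA value in replicate 3, with 12.49, 12.54 and 12.70 in Smo shRNA cells, against 13.27, 13.30 and 13.33 in control shRNA cells. Cxcl12 was chosen for its nearness to Maml2, so the shared pattern in replicate 3 follows from that choice. With 6 arrays in 2 lines, likeness mostly reflects the size of the difference between the lines.

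The wider pathway was read from a list of 58 further genes, grouped by role. Of these 55 were tested, and 12 fell, 13 rose and 30 did not pass, which is 45.5% called against 38.7% of all tested genes. Their median difference was 0.01, the same to 2 decimals as that of all tested genes. Leaving out single arrays gave 9 to 10 lower and 8 to 10 higher, and the count of higher genes dropped to 8 without Smo shRNA replicate 2 or without control replicate 2. Calls over all tested genes fell too, from 6529 to between 4828 and 5558 when an array was left out.

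In the nuclear complex, Maml3, a second Mastermind-like coactivator, fell with Maml2. It had 9.13, 9.10 and 9.28 in Smo shRNA cells, against 9.51, 9.46 and 9.52 in control shRNA cells (-0.33, SE 0.064, limma adjusted p = 0.000699). Maml1, the third of the family, had a difference of 0.04 (95% interval -0.06 to 0.14, limma adjusted p = 0.611). Rbpj, the DNA-binding partner of the receptors, had 12.45, 12.46 and 12.43 in Smo shRNA cells, against 12.55, 12.56 and 12.57 in control shRNA cells. The arrays were tightly grouped, and Rbpj fell by 0.12 on the log2 scale (SE 0.027, limma adjusted p = 0.00265). This call was lost with the mean of probe sets (-0.05, adjusted p = 0.362) and without the variance trend (adjusted p = 0.0586). The acetyltransferase gene Ep300 was 0.17 higher (SE 0.040, limma adjusted p = 0.00268), a call that 4 of the 6 single-array omissions removed.

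Some of the genes that process or modify the receptor changed, in both directions. Psen2, a catalytic subunit of gamma-secretase, had 8.33, 8.35 and 8.18 in Smo shRNA cells, against 9.17, 8.85 and 9.11 in control shRNA cells (-0.76, SE 0.085, limma adjusted p = 4.89e-06). The other tested members of the processing group that passed were Adam17 (0.20, limma adjusted p = 0.0203) and Furin (0.11, limma adjusted p = 0.0447), both higher. The lines overlapped in Adam17, and neither call was tried in the alternatives. In this group 5 of 8 tested genes did not pass. Lfng, a Fringe glycosyltransferase that changes which ligands a receptor answers to, averaged 8.37 ± 0.079 in Smo shRNA cells and 8.91 ± 0.10 in control shRNA cells (SD, n = 3 each; difference -0.54, SE 0.073, limma adjusted p = 2.91e-05). Its relatives Mfng (-0.05) and Rfng (0.01) did not pass.

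The endocytic adaptors Numb and Numbl, which restrain Notch receptors, moved apart. Numb had 11.13, 11.24 and 11.41 in Smo shRNA cells, against 10.84, 10.73 and 10.65 in control shRNA cells, a difference of 0.52 (SE 0.066, limma adjusted p = 1.75e-05). Numbl had 10.26, 10.25 and 10.39 in Smo shRNA cells, against 11.10, 11.03 and 11.03 in control shRNA cells, a difference of -0.75 (SE 0.051, limma adjusted p = 2.75e-08). For both genes the lines did not overlap. Among ubiquitin ligases, Dtx4 and Dtx3l of the Deltex family rose by 0.41 and 0.25, Dtx3 of the same family fell by 0.24, and Nedd4 fell by 0.08, a call lost in 4 of 15 alternatives. Of the ligases that act on ligands, Mib1 rose by 0.25, Neurl1a and Neurl1b fell by 0.29 and 0.34, and Mib2 did not pass (0.00). The Mib1 call was lost without control replicate 2 (limma adjusted p = 0.063). In Neurl1b the lines overlapped (limma adjusted p = 0.0111). Dlk1, a Delta-like protein that holds back fat cell formation, rose by 0.27 (limma adjusted p = 0.00734). The calls of Dtx3, Neurl1b and Dlk1 were not tried in the alternatives.

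Among the co-repressors, Tle2, a Groucho family protein, fell by 0.54 (SE 0.078, limma adjusted p = 4.97e-05) and Spen, which holds Rbpj target genes silent, rose by 0.20 (SE 0.050, limma adjusted p = 0.00411). In the Hes and Hey family, Hes6, an antagonist of Hes1, fell by 0.46 (SE 0.053, limma adjusted p = 6.49e-06). Bhlhe40 and Bhlhe41, related repressors that also answer to the circadian clock, rose by 0.59 and 0.37. Hey2 (0.17, 95% interval -0.05 to 0.39), Heyl (-0.02, -0.19 to 0.15), Hes5 (0.03, -0.11 to 0.17) and the feedback inhibitor Nrarp (-0.06, -0.22 to 0.11) did not pass.

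**Figure D4:**
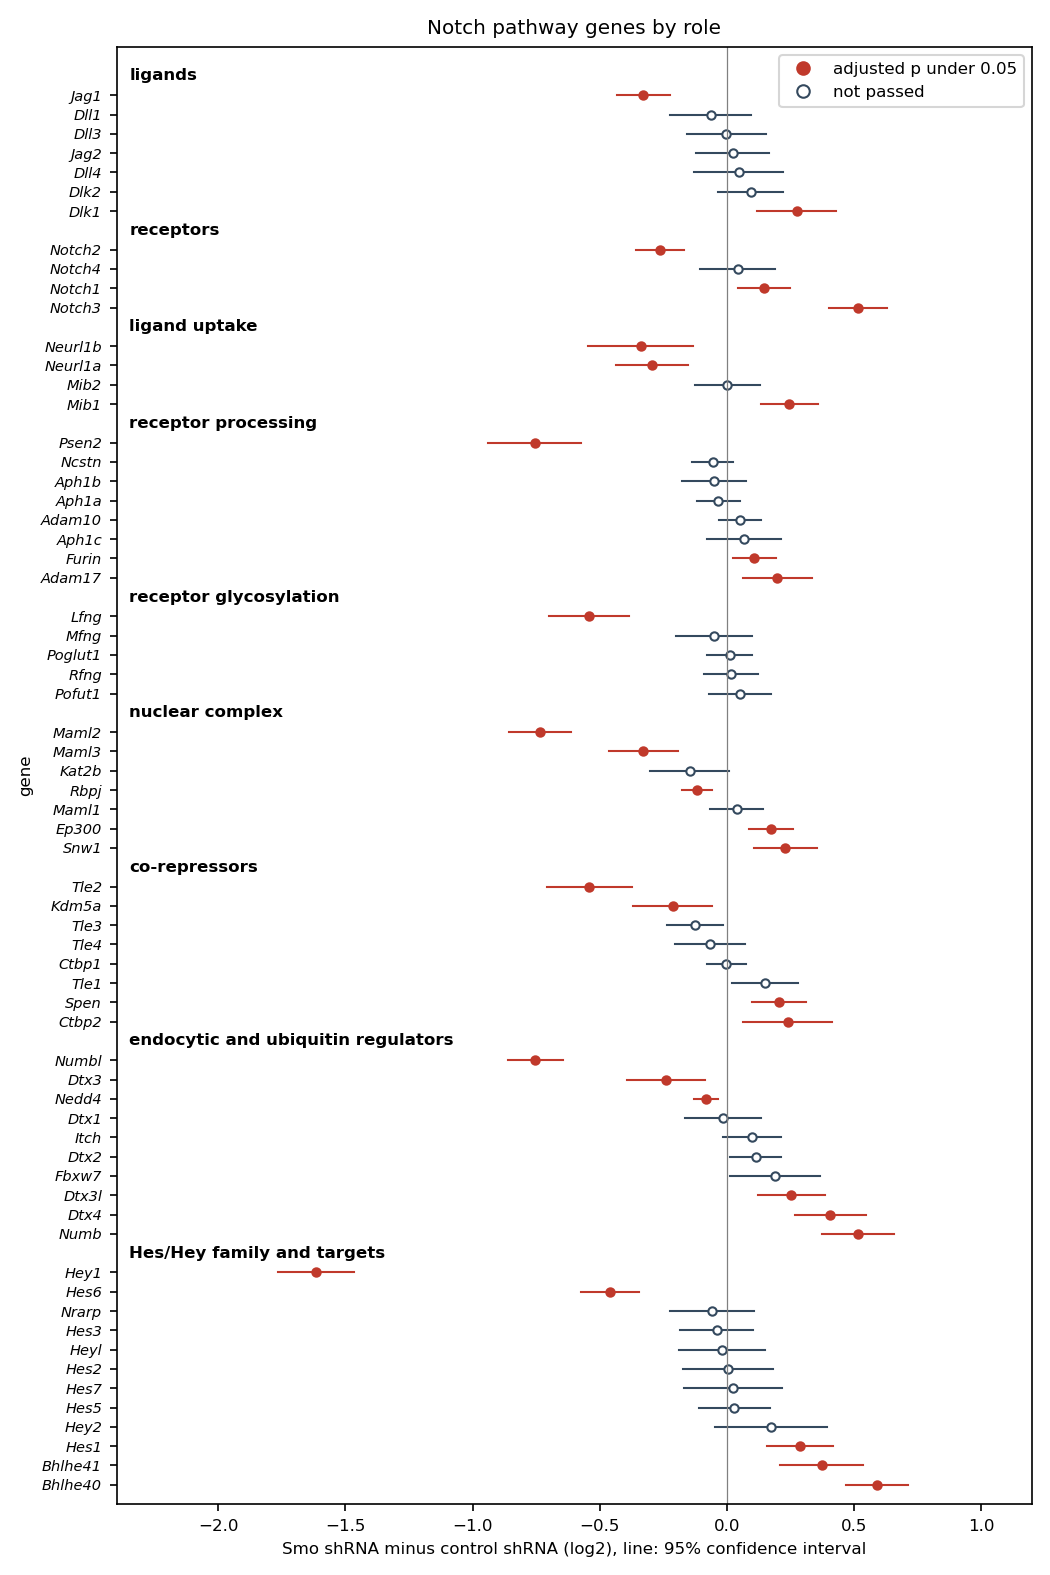
Difference between Smo shRNA and control shRNA arrays (log2) of the 65 tested Notch pathway genes, the 10 members included, grouped by role; lines are 95% confidence intervals, not adjusted for the number of genes, and filled red points passed an adjusted p of 0.05. Hey1 (-1.62) lies farthest from 0, and most groups hold red points on both sides.

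Marker genes were read beside these values, since RNA of a bulk culture cannot tell fewer cells of a type from less RNA per cell. Of all tested genes 38.7% passed, 21.3% higher and 17.4% lower. Of 10 stromal markers 7 fell and 0 rose, and their mean level per array was 10.78 to 10.86 in Smo shRNA cells, against 11.08 to 11.11 in control shRNA cells. The 7 falls were uneven, from -0.72 (Cxcl12, named above as nearest to Maml2) to -0.11 (Pdgfrb). The part of the stromal markers in the changes of the Notch genes was not tested. None of 10 endothelial markers passed, with a mean level of 7.63 to 7.76 in Smo shRNA cells and 7.64 to 7.76 in control shRNA cells, and none of 9 tested haematopoietic markers passed, at 7.834 to 8.001 in Smo shRNA cells and 7.803 to 7.997 in control shRNA cells. The stromal markers that did not pass were Vcam1 (10.46 in Smo shRNA cells, 10.54 in control shRNA cells), Thy1 (7.39 in Smo shRNA cells, 7.27 in control shRNA cells) and Ebf2 (7.62 in Smo shRNA cells, 7.63 in control shRNA cells). Line means of single genes were 7.06 to 8.38 among endothelial and 7.26 to 8.78 among haematopoietic markers. No detection call was used here, so whether Jag2, Dll1, Dll4 or these 2 marker groups were expressed cannot be read from these values.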

How the data were processed

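Total RNA of 3 Smo shRNA and 3 control shRNA samples of OP9 cells was measured on exon arrays. The deposited table by the authors gives log2 values of 1256831 probe sets, the log2 scale being read from the values (up to 15.14). Array medians were 6.56 to 6.59. How background, summary and normalization were done is not stated in the labels. In 20744 rows (1.65%) all arrays read 0. Exon probe sets with 1 gene symbol in the platform annotation were used, and 4227 of 22296 symbols were updated through RefSeq synonyms (GRCm38.p6). Of these, 245574 probe sets with a mean of at least 6.56, the median over all rows, were kept and joined by Tukey median polish where a gene had 3 or more.

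The lines were tested using limma 3.58.1 under R 4.3.3 (lmFit, eBayes with trend, no replicate block, two-sided, Benjamini-Hochberg threshold 0.05). Probe sets and splicing indices were fitted in the same way over all kept probe sets. The number of arrays limits the precision. In simulated Smo shRNA against control shRNA data with 16871 genes, 8, 48, 80 and 100% of genes changed 1.1, 1.25, 1.5 and 2-fold were recovered (50 each), and 3 unchanged genes were called. For the splicing index 0, 16, 52 and 78% of probe sets changed 1.25, 1.5, 2 and 4-fold were recovered. Far fewer genes and probe sets were changed in the simulation than passed in the real data. The adjustment was therefore stricter there, and these shares need not hold for the real tests.

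The members, lists and tests were chosen with earlier results of these data known. The genes named are Smo, the members with their most and least changed probe sets, Notch4, Dll3, Rbpj and up to 8 further pathway genes per direction by adjusted p, and the nearest profiles to Hey1 (5) and Maml2 (3), gene models and small RNA genes passed over. Adam17, Furin, Maml1, Mfng, Rfng, Hey2, Heyl, Hes5, Nrarp, Dtx3, Neurl1b, Mib2, Dlk1 and the stromal markers, from the lists, and probe sets that stood apart were named after their values were seen. Alternatives covered the filter, probe set summary, probe sets per gene (5), variance trend, normalization, symbols, replicate block and each array left out with the probe sets kept the same.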

Additional observations from a re-analysis of the deposited data

How the results depend on the processing

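The counts of 4 lower and 3 higher member genes held in the 9 alternatives that kept all arrays, and leaving out single arrays gave 4 lower and 2 to 3 higher, Notch1 being the gene lost. Jag1, Notch2, Notch3, Maml2, Hes1 and Hey1 kept direction and call in all 15 alternatives, Hey1 between -1.68 and -1.40. Differences that did not pass changed sign for Jag2 with the mean of probe sets (-0.0021), Dll4 without Smo shRNA replicate 2 (-0.00084, up to 0.095 without control replicate 1), Notch4 with the stricter filter (-0.034) and Dll3 with quantile normalization (0.0026), the cause not tested. With the mean of probe sets Dll4 was 0.16 and Dll1 -0.10, and without control replicate 1 Dll1 was -0.011, none past the threshold. Splicing index calls were 2 lower and 2 higher with the stricter filter, against 0 lower and 1 higher, and 0 and 1 in the fits without an array; fewer probe sets are tested there. Single arrays left out gave 64 to 78 lower and 42 to 48 higher member probe sets, 9 to 10 lower and 8 to 10 higher further pathway genes, and -1.98 to -1.85 for Hey1 minus Hes1. Over all tested genes 4828 to 5558 passed in these fits, against 6529 with all arrays.

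Deviations of same-numbered arrays from their group means correlated at 0.08, 0.10 and 0.39. Smo shRNA replicates 2 and 3 correlated best with the control of the same number, but replicate 1 with control replicate 2 (0.31). The numbers were not taken as pairs, and these values do not settle whether they are. With the replicate block 6931 genes passed, against 6529 without it. The replicate block gave 4 lower and 3 higher members, 82 lower and 49 higher member probe sets, and 12 lower and 12 higher further pathway genes. Values of dim probe sets limit what can be said of Jag2, Dll1 and Dll4.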
